A study of Arabidopsis thaliana with 15 samples.

Results

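PTL and LAS are 2 genes of organ boundaries, the narrow zones that separate young organs from the shoot meristem and from each other. PTL (PETAL LOSS, locus AT5G03680, probe set 250908_at) encodes a trihelix transcription factor that limits growth between sepals and is needed for petals to form. LAS (LATERAL SUPPRESSOR, locus AT1G55580, probe set 265072_at) encodes a GRAS-domain regulator that is needed to form axillary meristems in leaf axils. Boundary cells divide little, and regulators made there keep organs apart and help side shoots to form. The genes were chosen by name, and each has 1 probe set, which makes 2 of the 22746 probe sets measured apart from controls.

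The study profiled cells of the Arabidopsis thaliana shoot apex with 15 Affymetrix arrays in 6 groups, all from plants 24 days old. Of the sorted populations, CLV3p (3 arrays) is named after the stem cell peptide gene CLV3, WUSp (2 arrays) after the organizing centre gene WUS and FILp (3 arrays) after the organ primordium gene FIL. CLV3n (3 arrays) holds sorted cells from which the CLV3p type is missing, with no further composition given. Protoplast_induced and Uninduced (2 arrays each) are read here as apex material after and without protoplast preparation. The labels give no genotype, reporter line or sorting gate, and do not state where the replicates came from, so p-values measure only the spread between these arrays. Precision is limited by the few arrays per group.

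The label of CLV3p was borne out by CLV3, which had signals of 569, 1220 and 968 in CLV3p, 58.0 and 76.1 in WUSp, 1.83 to 6.02 in FILp and 6.73 to 12.2 in CLV3n. YAB3 and YAB5, YABBY genes related to FIL, had their highest group means in FILp, at 397 and 449.8, although neither passed the test against CLV3n. WUS and FIL were not analysed here, so the label of WUSp rests on no marker of its own. Signals of the hybridisation control bioC fell into a low class of 281 to 349 (CLV3p 3, CLV3n 3 and all FILp arrays) and a high class of 745 to 1203 (all others), so that FILp and WUSp share no class. The actin 3'/5' ratio, a measure of RNA integrity, was highest on CLV3p 1 and CLV3n 1, at 3.78 and 4.20 on the log2 scale.

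PTL was high in primordium cells and in cells without stem cells, and low in the stem cell and organizing centre populations. Its signal was 8.56, 24.5 and 12.1 in CLV3p, 28.6 and 60.0 in WUSp, 301, 354 and 389.9 in FILp, and 288, 254 and 353 in CLV3n. The unsorted groups had 433 and 350.5 in Protoplast_induced, against 339 and 318 in Uninduced. Every CLV3p and WUSp array thus lay below every array of the other 4 groups, and every CLV3p array below both WUSp arrays. This describes PTL alone, as the share of all probe sets without overlap was not counted. No detection calls were used here. All 5 arrays of CLV3p and WUSp were under the 40th percentile of their array, and CLV3p 1 and CLV3p 3 were under the floor of 19.5, the 20th percentile of all signals in the fit of the sorted arrays. PTL therefore entered the tests through the groups where it is high.

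LAS had another order, with CLV3n alone high among the sorted populations. Its signal was 75.8, 98.6 and 67.6 in CLV3p, 59.9 and 50.8 in WUSp, 75.6, 87.8 and 85.9 in FILp, and 177, 216 and 166 in CLV3n. Protoplast_induced had 125 and 133, against 195 and 184 in Uninduced. All 8 arrays of CLV3p, WUSp and FILp lay below all 4 arrays of the unsorted groups, and the 2 Protoplast_induced arrays lay below all CLV3n arrays. The share of all probe sets without such overlap was not counted, so this is a description only. LAS lay between the 35.7 and 52.8 percentile of its array throughout, and 1 of 3 CLV3p arrays and both WUSp arrays were under the 40th percentile of their array.

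**Figure D1:**
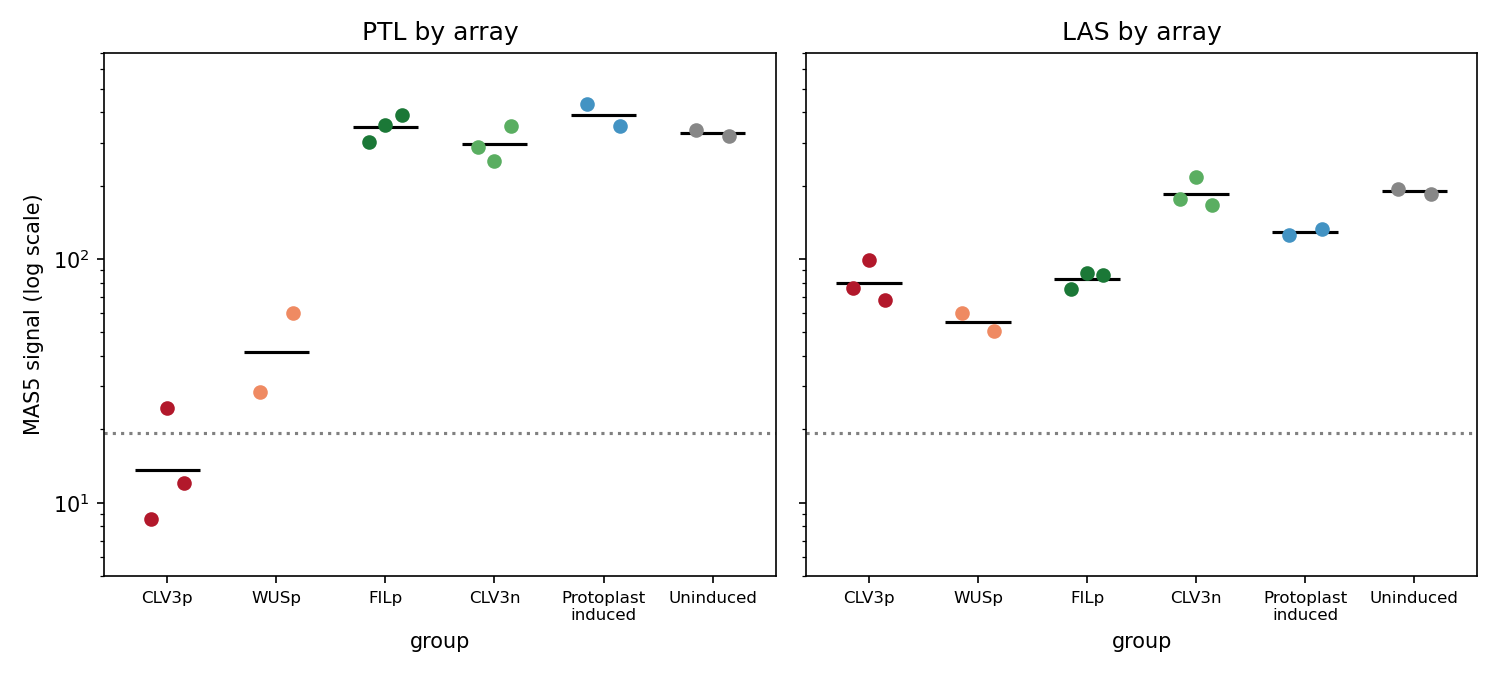
MAS5 signal of PTL (left) and LAS (right) on a log scale, with 1 point per array, black bars for the geometric mean of each group and a dotted line at the floor of 19.4 over all arrays. PTL is low in CLV3p and WUSp only, while LAS is low in CLV3p, WUSp and FILp, between 50.8 and 98.6.

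In order of group means from low to high, PTL had 13.6 in CLV3p (SD 0.77 log2, n = 3), 41.4 in WUSp (0.76, n = 2), 295 in CLV3n (0.24, n = 3), 328 in Uninduced (0.06, n = 2), 346 in FILp (0.19, n = 3) and 389.6 in Protoplast_induced (0.22, n = 2). The upper 4 groups could not be placed in an order, because their arrays overlapped or their differences did not pass the test. For LAS the order was 55.2 in WUSp (0.17, n = 2), 79.6 in CLV3p (0.28, n = 3), 82.9 in FILp (0.12, n = 3), 129 in Protoplast_induced (0.06, n = 2), 185 in CLV3n (0.20, n = 3) and 189 in Uninduced (0.05, n = 2). CLV3p and FILp overlapped in this order, and so did CLV3n and Uninduced. WUSp and CLV3p, FILp and Protoplast_induced, and Protoplast_induced and CLV3n did not overlap, but none of these differences passed the test. The share of all probe sets without overlap was not counted for any comparison. With 2 or 3 arrays per group, no order is drawn from non-overlap alone. In such bulk samples fewer expressing cells and less RNA per cell cannot be told apart.

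CLV3p was set against CLV3n to ask what distinguishes stem cells from the rest of the sorted apex, a comparison in which 13.8% of tested probe sets were called in either direction. PTL fell to a mean of 13.6 in CLV3p, against 295 in CLV3n, a log2 change of -4.44 ± 0.40 (SE; limma adjusted p = 1.43e-06; floored -3.81). Arrays of high bioC alone gave -4.22, and those of low bioC -4.87. LAS also fell, to 79.6 in CLV3p, against 185 in CLV3n, or by a log2 change of -1.22 ± 0.29 (adjusted p = 0.0105). Without CLV3n 2 it was -1.11 and no longer passed (adjusted p = 0.0527). In fits of fewer arrays, LAS had -1.18 within the high bioC class and did not pass (adjusted p = 0.0983). Within the low class, where CLV3p 3 and CLV3n 3 alone stand for these groups, it had -1.30.

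The organizing centre population was also low for both genes relative to CLV3n (19.2% called). PTL fell to 41.4 in WUSp, against 295 in CLV3n, a log2 difference of -2.84 ± 0.45 (adjusted p = 0.000548), and LAS to 55.2, against 185, a difference of -1.75 ± 0.33 (adjusted p = 0.00203). Both calls held without either WUSp array, with LAS between -1.87 and -1.63 and PTL between -3.37 and -2.30 over the arrays left out in turn. Within the high bioC class, which holds both WUSp arrays, PTL had -2.71 and LAS -1.83.

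FILp and CLV3n were compared to ask how primordium cells differ from the sorted cells without stem cells, and only 4.30% of probe sets were called. PTL had means of 346 in FILp and 295 in CLV3n, and its log2 difference of 0.23 did not pass (95% interval -0.62 to 1.08; adjusted p = 0.793). LAS fell to 82.9 in FILp, against 185 in CLV3n, a log2 difference of -1.16 ± 0.29 (adjusted p = 0.0353). The arrays did not overlap, but the call ended when any 1 of the 6 arrays was left out (-1.24 to -1.05, adjusted p = 0.0545 to 0.124). With the bioC class as a block the difference was -0.96 (adjusted p = 0.204), and within the low class, with CLV3n 3 as the only CLV3n array, it was -1.005 (adjusted p = 0.234).

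Stem cells and primordium cells (22.6% called) differed in PTL and not detectably in LAS. PTL had 13.6 in CLV3p and 346 in FILp, a log2 difference of -4.67 ± 0.40 (adjusted p = 4.82e-07; floored -4.04; -4.84 within the low bioC class). LAS had 79.6 in CLV3p and 82.9 in FILp, a difference of -0.06 with a 95% interval of -0.68 to 0.56 (adjusted p = 0.915). WUSp against FILp (15% called) gave -3.06 ± 0.45 for PTL (adjusted p = 0.00021) and -0.59 for LAS (-1.28 to 0.11; adjusted p = 0.269). Both WUSp arrays were below all FILp arrays for LAS, but the difference did not pass and no order is drawn from it.

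Between the stem cell and organizing centre populations (24.0% called), PTL had means of 13.6 in CLV3p and 41.4 in WUSp, with all 5 arrays under the 40th percentile, so that it was tested there only through the groups where it is high. The log2 difference was -1.60 ± 0.45 on signals as deposited (adjusted p = 0.0169) and -0.98 with the floor, where it did not pass (adjusted p = 0.0508). It also did not pass without WUSp 2 (-1.07, adjusted p = 0.208) or within the high bioC class (-1.52, adjusted p = 0.132), and no direction is drawn from it. LAS had 79.6 in CLV3p and 55.2 in WUSp, a difference of 0.53 (-0.17 to 1.23; adjusted p = 0.264), with every CLV3p array above both WUSp arrays. No order is drawn from this difference, which did not pass.

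**Figure D2:**
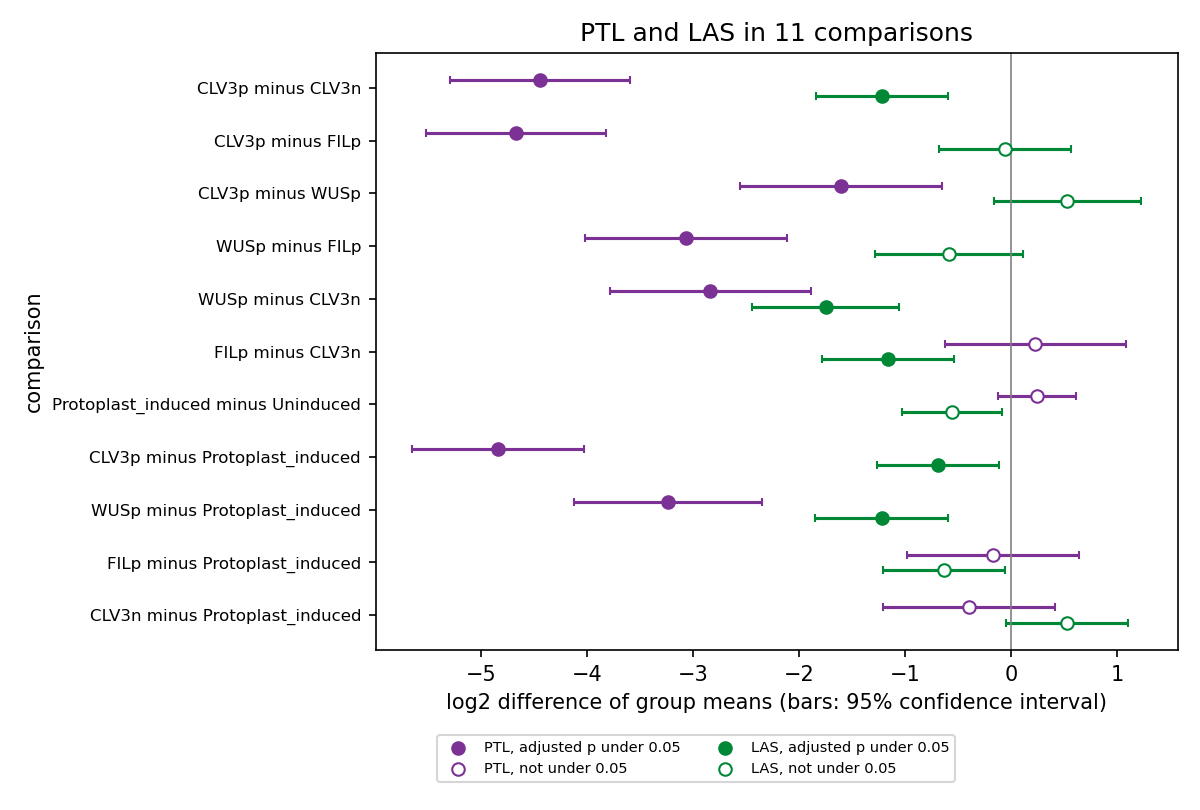
Log2 difference of group means for PTL (purple) and LAS (green) in 11 comparisons, with bars for the 95% confidence interval and filled points where the adjusted p was under 0.05. PTL has its most negative values where CLV3p or WUSp is set against another group, down to -4.84 for CLV3p against Protoplast_induced, and LAS does not go below -1.75.

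The balance of the genes was compared across the sorted populations as log2 PTL minus log2 LAS on each array, with low signals raised to the floor and the CLV3n mean set to 0. This comparison was chosen after the values were seen. It was -2.63, -2.68 and -2.47 in CLV3p, -1.74 and -0.43 in WUSp, 1.32, 1.34 and 1.51 in FILp, and 0.03, -0.44 and 0.41 in CLV3n. CLV3p and FILp lay on opposite sides of CLV3n without overlap, and WUSp 2 fell inside the CLV3n range. The population means differed from CLV3n by -2.60 in CLV3p (-3.22 on signals as deposited), -1.09 in WUSp and 1.39 in FILp, which are given as a description with no test.

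**Figure D3:**
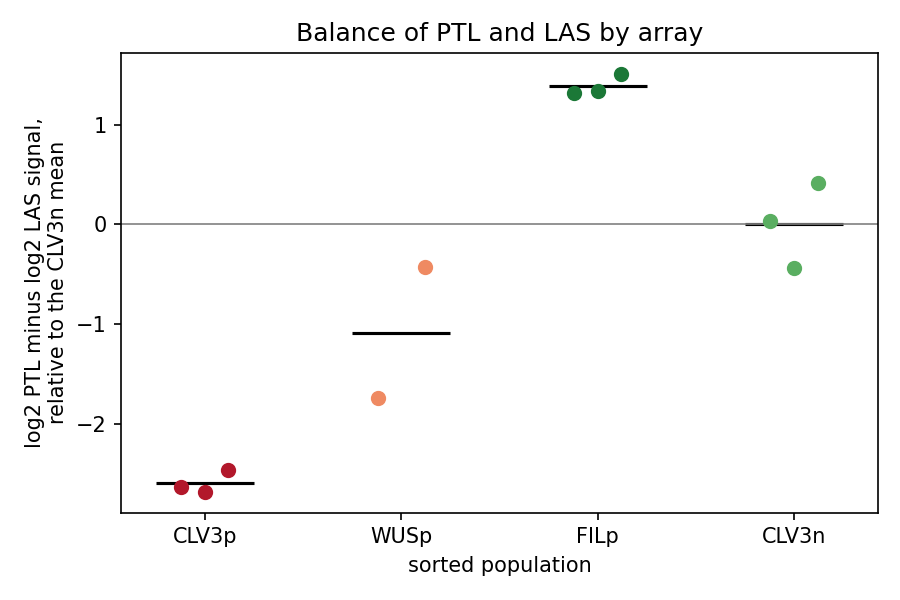
Log2 PTL minus log2 LAS signal on each array of the 4 sorted populations, relative to the CLV3n mean, with black bars for population means. Signals under the floor were raised to it, which applied to PTL on CLV3p 1 and CLV3p 3. FILp arrays lie between 1.32 and 1.51 and CLV3p arrays between -2.68 and -2.47. Before the CLV3n mean was set to 0, CLV3p 1, CLV3p 2 and CLV3p 3 had -1.96, -2.01 and -1.80 with the floor. On signals as deposited they had -3.15, -2.01 and -2.48, a wider spread.

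Protoplast preparation, which takes cells out of the tissue before sorting, was tested with 2 arrays against 2 (21.9% called). PTL had 389.6 in Protoplast_induced and 328 in Uninduced, a log2 difference of 0.25 (-0.12 to 0.62; adjusted p = 0.323). LAS had 129 in Protoplast_induced and 189 in Uninduced, without overlap of the 2 arrays each. Its difference of -0.56 (-1.03 to -0.09) did not pass after adjustment (adjusted p = 0.0845). With quantile normalization it was -0.67 and passed (adjusted p = 0.0436). The 6 protoplast stress genes on the list, such as the zinc finger gene STZ, had summed signals of 6030 to 6774 in Protoplast_induced and 334 to 439.6 in Uninduced. In the sorted populations they summed to 10252 to 12772 in CLV3p, 11463 to 16600 in WUSp, 9209 to 13354 in FILp and 10538 to 15689 in CLV3n, each sum above Protoplast_induced. Single genes differed. WRKY53 had means of 306 in CLV3p and 282 in FILp, against 521 in Protoplast_induced, and WRKY6 28.3 in CLV3p, against 40.4. Of the 6, 2 were called higher than Protoplast_induced in CLV3p and 3 in each other sorted population. Of all tested probe sets, 32.8% to 44.8% were called there in either direction, and 44.7% to 47.9% of those calls were higher. The part of the stress genes in the PTL and LAS values, here and between sorted and unsorted cells, was not tested.

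Against unsorted protoplasts PTL was low in the same 2 populations. It was lower in CLV3p, with a log2 difference of -4.84 ± 0.38 (44.8% called; adjusted p = 5.29e-08; floored -4.22), and in WUSp, with -3.23 ± 0.42 (32.8% called; adjusted p = 2.28e-05). In FILp (35.4% called) it had -0.17 (-0.98 to 0.64; adjusted p = 0.762), and in CLV3n (34.0% called) -0.40 (-1.21 to 0.41; adjusted p = 0.442). LAS was lower in WUSp, with -1.22 ± 0.30 (adjusted p = 0.00483), and its difference for CLV3p, -0.69 ± 0.27 (adjusted p = 0.0477), ended under 6 of the 7 other settings and without 4 of the 5 arrays in turn. It was -0.63 in FILp (adjusted p = 0.0797) and 0.53 in CLV3n (adjusted p = 0.143), neither passing. As shares of the Protoplast_induced mean, PTL stood at 10.6% in WUSp, 88.9% in FILp and 75.8% in CLV3n, and no share is given for CLV3p, where 2 of 3 arrays were under the floor. The same shares for LAS were 61.9% in CLV3p, 42.9% in WUSp, 64.4% in FILp and 144% in CLV3n.

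Of the 30 boundary genes listed, 5 have a probe set named here, and CUC1, CUC2, CUC3 and LOB were not analysed here. RBE, a zinc finger gene of petal development, stayed at signals of 1.2 to 49.0 and was not tested. PUCHI, an AP2/ERF gene that acts in early flower development, was also low in CLV3p and WUSp against FILp and CLV3n, but differed from PTL in the order of its other group means. Its signal was 162, 94.7 and 65.5 in CLV3p, 81.9 and 158 in WUSp, 905, 608 and 458 in FILp, and 665, 993 and 662 in CLV3n. The log2 differences were -2.92 ± 0.35 for CLV3p against CLV3n (adjusted p = 4.41e-05) and -2.47 ± 0.39 for WUSp against FILp (adjusted p = 0.00056). PUCHI was higher than Protoplast_induced in sorted FILp and CLV3n cells, by 2.17 ± 0.37 and 2.44 ± 0.37 on the log2 scale, where the PTL differences did not pass. In protoplasting PUCHI fell, to 140 in Protoplast_induced, against 238 in Uninduced (-0.77 ± 0.22, adjusted p = 0.0278). The call ended without Protoplast_induced 1 (-0.62) or Uninduced 2 (-0.605). It also ended with no filter on low signals (adjusted p = 0.0601) and in a single fit of all 15 arrays (adjusted p = 0.356). UFO, an F-box gene of floral meristems, was low in FILp, with -2.81 ± 0.25 for FILp against CLV3n and 3.13 ± 0.25 for CLV3p against FILp (adjusted p = 6.56e-06 and 2.23e-07). Against CLV3n, UFO had 0.32 in CLV3p and 0.77 in WUSp, and neither passed (adjusted p = 0.436 and 0.0605).

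CLV3p and WUSp were each called lower than both FILp and CLV3n for PTL, PUCHI, YAB3, YAB5 and ROXY1, a glutaredoxin gene of petal initiation. This pattern was defined from the PTL calls and held by 220 of 15052 probe sets (1.46%). The place of PTL among them was therefore fixed in advance, and nothing is drawn from it. Against CLV3n, the YAB3 and YAB5 calls in CLV3p ended within the high bioC class (adjusted p = 0.0775 and 0.0571). In WUSp, YAB3 ended without WUSp 2 (-1.86, adjusted p = 0.0519), and YAB5 without WUSp 1 (-2.21, adjusted p = 0.121) and within the high bioC class (-3.09, adjusted p = 0.11). ROXY1 also exceeded CLV3n in FILp, by 1.65 ± 0.27 (adjusted p = 0.00267), where PTL did not pass. SPT, a bHLH gene of carpel margins, was higher in CLV3p and WUSp than in FILp, with 3.47 ± 0.16 for CLV3p against FILp and 3.25 ± 0.18 for WUSp against FILp. The LAS pattern, in which CLV3p, WUSp and FILp were each called lower than CLV3n, was defined from the LAS calls and held by 32 probe sets (0.213%). For LAS, the FILp call ended when any 1 array was left out (adjusted p = 0.0545 to 0.124). The CLV3p call ended without CLV3n 2 (adjusted p = 0.0527). PHV, an HD-ZIP III gene of the upper organ side, was higher than CLV3n in CLV3p, WUSp and FILp, by 0.78, 0.66 and 0.83. The PHV call in WUSp ended without either WUSp array (adjusted p = 0.0928 and 0.0993), and those in CLV3p and FILp ended within the low bioC class.

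**Figure D4:**
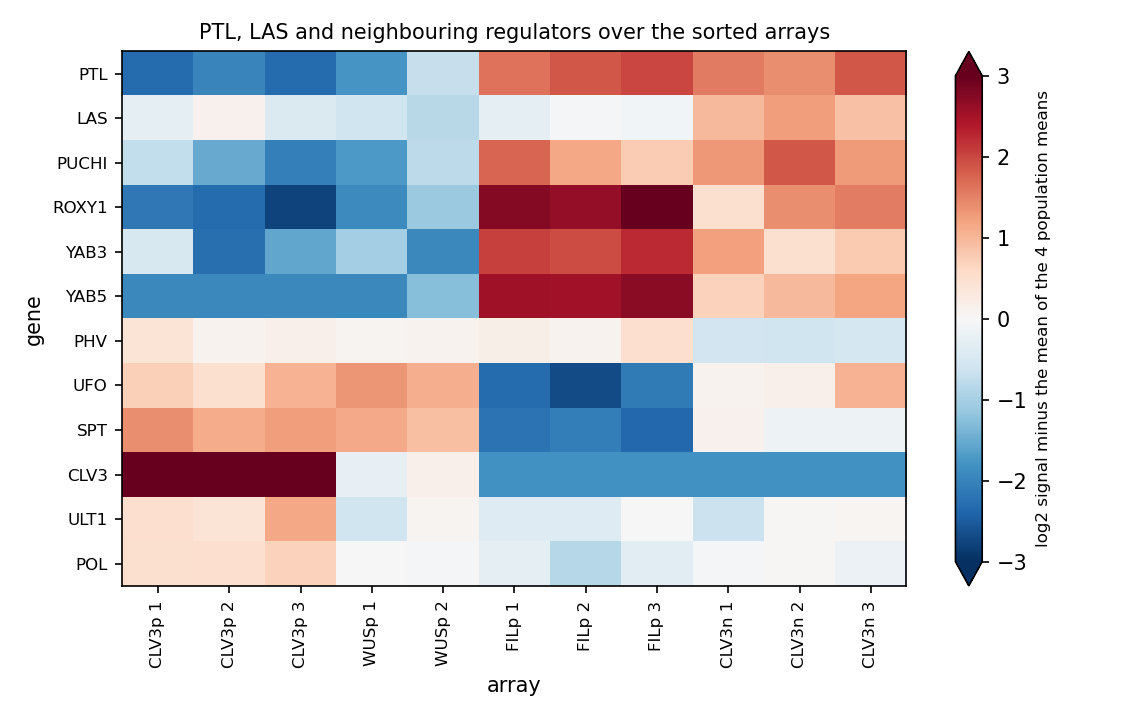
Log2 signal of PTL, LAS and 10 listed regulators on the 11 sorted arrays, with signals under the floor raised to it and each gene centred on the mean of its 4 population means. PUCHI, ROXY1, YAB3 and YAB5 change colour with PTL between WUSp and FILp, while UFO and SPT are blue on the FILp arrays and LAS is reddest on the CLV3n arrays.

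Relatives by protein family were mixed. Of 17 other listed trihelix genes with a probe set, 14 were tested, and for CLV3p against CLV3n 3 were lower and 0 higher (8.95% and 4.88% of all tested), with a median log2 difference of 0.13 beside 0.02 over all tested probe sets. The 3 were AT1G31310 (-2.97 ± 0.63; floored -2.46), AT3G54390 (-1.78 ± 0.33) and AT1G76880 (-1.08 ± 0.28). The AT1G31310 call ended within the high bioC class (adjusted p = 0.0907), and AT1G76880 was not examined under the alternatives. AT3G54390 and AT1G31310 were lower in CLV3p than in WUSp too (-1.25 ± 0.37 and -2.22 ± 0.71), but these calls ended without either WUSp array. In WUSp their means were 111 and 119, against 159 and 201 in CLV3n, and neither difference passed the test.

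Among 12 other GRAS genes with a probe set, 10 were tested. For CLV3p against CLV3n 1 was higher, AT5G59450 (1.21 ± 0.23; adjusted p = 0.00171), and 0 were lower (4.88% and 8.95% of all tested). Nothing is drawn from these counts about the family. For FILp against CLV3n 1 was lower, AT1G63100, at -1.49 ± 0.22 (adjusted p = 0.00104; 2.56% of all tested were lower), and it was also lower in WUSp, at -1.49 ± 0.25 (adjusted p = 0.000822). In the stem cells AT1G63100 was not called against CLV3n, with 572, 730.3 and 630 in CLV3p and 667, 605 and 762 in CLV3n.

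Among 8221 other genes with a tested probe set, those most like PTL over the 11 sorted arrays were AT1G22490 (Pearson r = 0.98), the cytochrome P450 gene CYP71B23 (0.976), AT5G22580 (0.975), AT1G10690 (0.969) and the RING finger gene ATL63 (0.969). AT1G22490 had means of 48.9 in CLV3p, 155 in WUSp, 961 in FILp and 669 in CLV3n. YAB5 had r = 0.951 with PTL, YAB3 0.875 and LAS 0.55, while CLV3 had -0.907. Those most like LAS were REM22, a gene of the REM group of B3 domain proteins (0.943), AT1G10000 (0.921), the sugar transporter gene SWEET11 (0.92), AT2G04850 (0.91) and AT3G19200 (0.909). These values describe arrays that share populations and scaling, and each was the highest of many.

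REM22 had means of 55.5 in CLV3p, 21.0 in WUSp, 31.1 in FILp and 679 in CLV3n, a far wider range than LAS. In the unsorted groups it had 41.6 in Protoplast_induced and 21.8 in Uninduced, where LAS had 129 and 189. SWEET11 was higher in unsorted than in all sorted groups, at 389.7 in Protoplast_induced and 382 in Uninduced, against 154 in CLV3n.

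**Figure D5:**
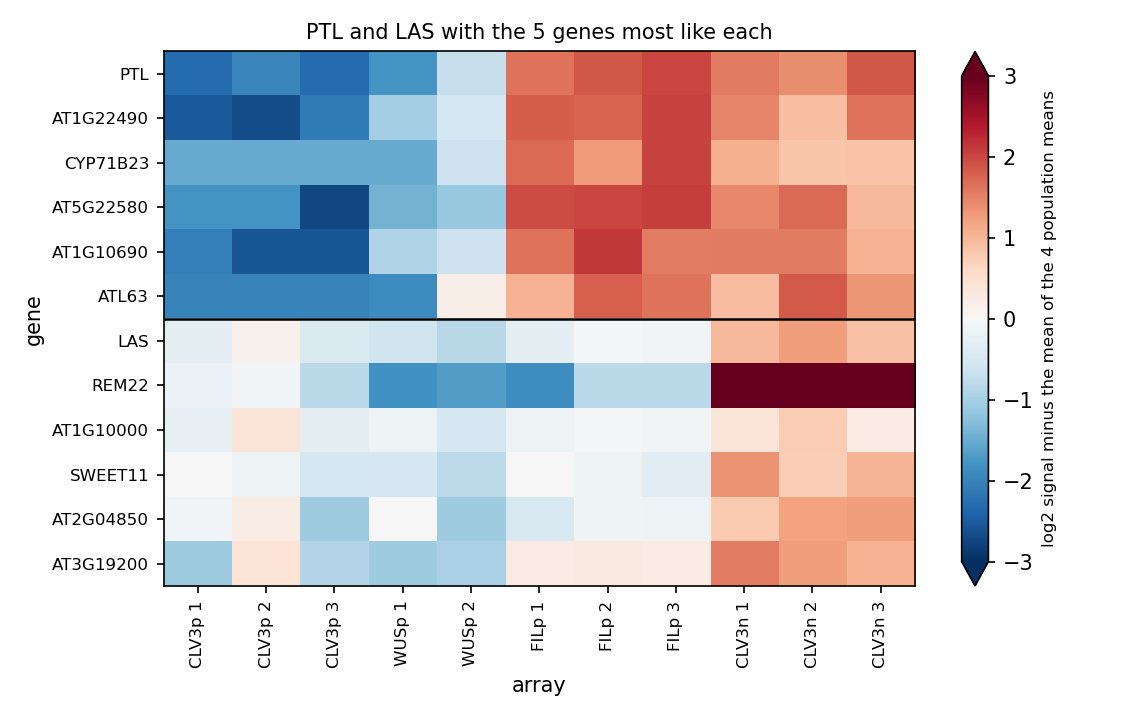
Log2 signal on the 11 sorted arrays of PTL and LAS, each above the 5 genes most like it, with signals under the floor raised to it and each gene centred on the mean of its 4 population means. The genes above the line are low in CLV3p and WUSp, and those below it are highest in CLV3n, with REM22 reaching a mean of 679 there.

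Markers of other cells also moved between the sorted populations. The 4 green tissue genes measured of 5 listed, such as the Rubisco activase gene RCA, had summed signals of 1661 to 2108 in CLV3p, 6829 to 7836 in WUSp, 4668 to 7522 in FILp and 4656 to 5534 in CLV3n. All 4 were called lower in CLV3p than in CLV3n, as were 8.95% of all tested probe sets. RCA, 1 of 4, was called higher in WUSp than in CLV3n (0.87; 19.2% called in either direction). That call ended without either WUSp array (adjusted p = 0.061 and 0.0523). PORB, 1 of 4, was called higher in FILp than in CLV3n (4.30% called in either direction), with means of 2178 and 1084. The PORB call ended with the bioC class as a block (adjusted p = 0.177). It also ended without CLV3n 1, CLV3n 2 or CLV3n 3 (adjusted p = 0.108, 0.0844 and 0.0824) and without FILp 2 or FILp 3 (adjusted p = 0.111 and 0.156). Without both CLV3n 1 and CLV3p 1 it did not pass either (adjusted p = 0.105). The 2 epidermis genes measured of 7 listed, CR4 and SHN3, summed to 932 to 1274.5 in CLV3p, 169 to 186 in WUSp, 548 to 712 in FILp and 568 to 642 in CLV3n. Between FILp and CLV3n they went opposite ways, CR4 with means of 552 and 457 and SHN3 with 60.9 and 155. Neither was called there. None of 6 vascular genes was analysed here. The part of these cells in the PTL and LAS values was not tested.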

How the data were processed

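Per the labels, RNA of plants 24 days old was purified on RNeasy columns, and biotin-labelled target was hybridised to Affymetrix arrays. The deposited values are MAS5 signal per probe set, an intensity on a linear scale, and MAS5 is named without a version in the submitters' processing notes. The trimmed mean between the 2nd and 98th percentile was 499.8 on every array. Signals were taken to log2 without further scaling, leaving out 64 controls.

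Tests covered probe sets above the 40th percentile of the array on 2 or more arrays entering the fit. Differences were estimated with limma 3.58.1 in R 4.3.3 (lmFit, then eBayes, both trend and robust options on). The two-sided p-values were adjusted by Benjamini-Hochberg within a comparison, and calls were made at 0.05. The 6 comparisons among sorted populations came from a fit of their 11 arrays (15052 probe sets), protoplasting from its 4 arrays (13911), and sorted against unsorted protoplasts from all 15 arrays (15436). No adjustment was made across the 11 comparisons. The fit was tested on simulated data. Group values are geometric means, and SD is on the log2 scale. "Floored" differences have signals under the 20th percentile of the fit's values raised to it.

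The members, gene lists and tests were chosen with earlier results of these data known. Genes were named from GEO's platform annotation, which pairs 13513 probe sets with 1 gene, 503 with several, and leaves 8730 unnamed here. List genes were matched by locus through the TAIR10.1 gene table, and a gene with several probe sets was represented by the one with the highest mean. Named list genes are at most the 3 called members with the largest change per list and comparison, PTL and LAS aside. The genes most like PTL or LAS are the 5 with the highest Pearson correlation over the 11 sorted arrays on floored log2 signals.

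Replicate numbers were not taken to pair arrays in the main fits. Deviations of same-numbered sorted arrays from their group means correlated between -0.117 and 0.347, and those of other pairs between -0.344 and 0.117. CLV3p and CLV3n had the highest values, 0.346 for replicate 1 and 0.347 for replicate 3, with 0.044 for replicate 2. The labels do not state whether these arrays were paired. With the replicate block, CLV3p against CLV3n passed for PTL and LAS (limma adjusted p = 5.28e-07 and 0.0152). Alternatives were quantile normalization, centring on the median, the floor, no filter, other sets of arrays, a replicate block, a block or split by the bioC control, and leaving out each array. Promoter and protein sequences were not used here. Centring moved the median over all tested probe sets to 0.19 for CLV3p against CLV3n, where it was 0.02, and to 0.29 for CLV3p against Protoplast_induced, where it was 0.01. With centring, the share of higher among all calls (without it in parentheses) was CLV3n against Protoplast_induced 60.0% (47.9%), CLV3p against CLV3n 59.8% (35.3%), CLV3p against Protoplast_induced 67.0% (47.0%), FILp against CLV3n 54.0% (40.3%), FILp against Protoplast_induced 66.4% (46.9%), Protoplast_induced against Uninduced 34.1% (47.9%), WUSp against CLV3n 61.4% (43.5%) and WUSp against Protoplast_induced 66.6% (44.7%).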

Additional observations from a re-analysis of the deposited data

How the results depend on the processing

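For PTL, the log2 differences of CLV3p and WUSp against FILp, CLV3n and Protoplast_induced stayed negative and past the threshold under every alternative run, while CLV3p against WUSp was -0.98 with the floor, -1.52 within the high bioC class and -2.14 to -1.07 without 1 array in turn, not passing in the first, the second and without WUSp 2. In a fit of those 2 groups alone PTL did not pass the filter, so that alternative gave no value. Differences near 0 turned sign: PTL in FILp had -0.0254 against CLV3n within the low bioC class and 0.0431 against Protoplast_induced with centred arrays, and LAS in CLV3p against FILp had 0.0394 with quantile normalization, 0.0162 with centring and -0.21 to 0.0604 without 1 array. LAS in CLV3p against CLV3n did not pass within the high and low bioC classes (-1.18 and -1.30), without both CLV3n 1 and CLV3p 1 (-1.22), or without CLV3n 2 (range without 1 array -1.37 to -1.10). LAS in FILp against CLV3n did not pass with quantile normalization (-1.02), with the bioC block (-0.96), within the low class (-1.005), without both CLV3n 1 and CLV3p 1 (-1.19), or without any 1 array (-1.24 to -1.05). LAS in CLV3p against Protoplast_induced did not pass with quantile normalization (-0.28), centring (-0.41), no filter (-0.69), the replicate block (-0.63), the 2 groups alone (-0.69), the bioC block (-0.59) or without 4 of the 5 arrays (all 5 gave -0.85 to -0.57, and the fit without CLV3p 2, at -0.85, passed). LAS in WUSp against Protoplast_induced did not pass with quantile normalization (-0.72), and in protoplasting it then passed (-0.67). The splits hold fewer arrays, and no cause of these changes was tested.

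With the replicate number as a block, LAS in CLV3p against Protoplast_induced had -0.63 (adjusted p = 0.0883), and no other call of PTL or LAS changed. Over the alternatives, with the count as reported in parentheses, called probe sets numbered CLV3n against Protoplast_induced 2605 to 5606 (5249), CLV3p against CLV3n 1136 to 2715 (2082), CLV3p against FILp 2452 to 4019 (3407), CLV3p against Protoplast_induced 4455 to 7808 (6916), CLV3p against WUSp 1628 to 4258 (3616); FILp against CLV3n 355 to 1032 (647), FILp against Protoplast_induced 2904 to 6920 (5465), Protoplast_induced against Uninduced 727 to 3654 (3052), WUSp against CLV3n 1035 to 3962 (2883), WUSp against FILp 980 to 3342 (2253) and WUSp against Protoplast_induced 2995 to 7108 (5059). On signals as deposited, the correlation with PTL was 0.885 for AT1G10690, and with LAS 0.794 for AT2G04850 and 0.752 for AT3G19200, an alternative chosen after seeing the data. With 2 or 3 arrays a group, and PTL signals in CLV3p near the floor, the size of its fold change there is uncertain.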
